A study of Homo sapiens with 24 samples.

Results

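The extracellular matrix is the protein and sugar scaffold that cells secrete around themselves, and the genes described here are 50 that build it, cross-link it or cut it. They were chosen by symbol from a fixed list, and each symbol matched 1 of the 58721 gene IDs in the deposited count data through GENCODE 29. By role they fall into 6 fibrillar collagens, 4 network-forming and multiplexin collagens, 6 beaded-filament, anchoring-fibril and FACIT collagens, 7 adhesive and matricellular glycoproteins, 7 laminins and nidogens, 2 heparan sulfate proteoglycans, 5 hyaluronan-binding proteoglycans and link proteins, 3 small leucine-rich proteoglycans, 3 microfibril and elastic fibre proteins, 2 lysyl oxidases, and 5 matrix metalloproteinases and their inhibitors. The choice used no measured value of these libraries, but results of these data were known when it was made.

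The study asked what the zinc finger transcription factor ZFX does to gene expression in human cell lines, by RNA-seq of 24 libraries in 8 groups of 3. The established glioblastoma line LN-229, labelled wild type in all groups, gave 15 libraries: cells given control siRNA (siControl), ZFX knockdown (siZFX), ZNF593 knockdown (siZNF593), both at once by the 2 siRNAs (the double knockdown), and a further control siRNA set (siControl_2). The treatment label of siControl_2 is that of siControl, and it is tied to the double knockdown by data names alone. In addition there were 9 libraries of 293T cells, a human embryonic kidney line, in which ZFX and its paralog ZNF711 had been knocked out in every group (DKO cells). These received the empty vector pCMV6, ZFX of wild type with a FLAG tag (wtZFX) or another FLAG-tagged construct called ZFX12_13, whose change the labels do not spell out. No hours after transfection and no clone number for the DKO cells were given in the sources used here. The series calls the 3 libraries of a group biological replicates without naming separate cultures, so p-values rest on the variation among samples that may be technical repeats.

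Collagens are secreted as triple helices that either pack into fibrils, as collagens I, III, V and XI do, or tie into sheets, as collagen IV does in basement membranes. Laminins polymerise on the cell surface, nidogens and the heparan sulfate proteoglycan perlecan join them to collagen IV, and integrins and dystroglycan anchor cells to the result. Brain matrix is poor in fibrils and rich in hyaluronan, which aggrecan, versican, brevican and neurocan bind with link proteins, and glioblastoma cells are known to lay down tenascin, fibronectin and collagen around vessels. Metalloproteinases cut this scaffold and TIMPs inhibit them.

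The libraries held 16223239 to 30159260 counts on genes, and 9.49% to 11.1% of reads met more than one gene and were not counted on any. Enough counts for a test were found for 17684 genes of LN-229 cells and for 19376 of DKO cells. ZFX averaged 50.5 CPM (counts scaled to a common library total) in siControl, 16.01 with siZFX, 53.6 in siControl_2 and 26.7 in the double knockdown. ZNF593 had 0 counts in the unstranded column of every library, and its counts summed over the 2 stranded columns ran from 31.3 to 38.4 CPM in both control sets and from 1.59 to 3.76 CPM with siZNF593 alone or in the double knockdown. All 8 glial or glioblastoma markers checked averaged 1 CPM or more in LN-229, and 6 of the 8 did in DKO cells. They summed to 3995 to 7325 CPM in LN-229 libraries and to 306 to 349 CPM in DKO libraries. Of 6 markers of the 293T line, 5 averaged 1 CPM or more in DKO cells and 1 in LN-229. Their sums were 410 to 470 CPM and 1.58 to 5.11 CPM. Markers of endothelial cells (PECAM1, CDH5, VWF, KDR) summed to 0.75 to 2.9 CPM in LN-229 libraries, and those of macrophages or blood (PTPRC, CD14, CD163, AIF1) to 0.767 to 2.23 CPM. Both cell lines are bulk samples, in which fewer cells of a type and less RNA per cell cannot be told apart.

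Promoter sequences are shown for the genes on which the results turn most, so that their base composition and 2 short motifs can be read beside the values. They come from RefSeq on GRCh38.p14, are written 5′ to 3′ on the strand of the gene, cover the 250 bases before its start, and carry in capitals the hexamers AGGCCT (the core of the sequence known for ZFX) and GGGCGG (the core of the GC box, printed as CCGCCC where it lies on the other strand). ACAN encodes aggrecan, TIMP3 a tissue inhibitor of metalloproteinases, and HSPG2 perlecan.
ACAN, chr15:88803186-88803435, plus strand: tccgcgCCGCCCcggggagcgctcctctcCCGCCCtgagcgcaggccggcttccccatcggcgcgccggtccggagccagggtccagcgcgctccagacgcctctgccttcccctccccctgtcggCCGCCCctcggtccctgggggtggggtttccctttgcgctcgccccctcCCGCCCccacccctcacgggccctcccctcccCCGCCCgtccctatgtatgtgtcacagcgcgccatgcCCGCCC
TIMP3, chr22:32801455-32801704, plus strand: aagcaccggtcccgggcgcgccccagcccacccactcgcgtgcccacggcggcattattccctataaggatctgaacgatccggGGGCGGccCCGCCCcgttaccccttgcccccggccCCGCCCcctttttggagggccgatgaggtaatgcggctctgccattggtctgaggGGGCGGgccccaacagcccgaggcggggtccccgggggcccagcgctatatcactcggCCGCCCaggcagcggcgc
HSPG2, chr1:21937311-21937560, minus strand: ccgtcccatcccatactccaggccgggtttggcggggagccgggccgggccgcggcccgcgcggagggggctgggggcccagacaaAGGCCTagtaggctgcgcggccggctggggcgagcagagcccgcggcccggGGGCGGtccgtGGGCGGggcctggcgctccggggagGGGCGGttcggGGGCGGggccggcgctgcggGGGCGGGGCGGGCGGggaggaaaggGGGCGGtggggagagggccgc
COL4A1 and COL4A2 encode the chains of the main collagen IV network and are read in opposite directions from starts 126 bases apart in RefSeq, so 1 short stretch serves both genes. It is printed on the plus strand, with GGGCGG and CCAAT in capitals.
COL4A1 to COL4A2, chr13:110307158-110307283, plus strand: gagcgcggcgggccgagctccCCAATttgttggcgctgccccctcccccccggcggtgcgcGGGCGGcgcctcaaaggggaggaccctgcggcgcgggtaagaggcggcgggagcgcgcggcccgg

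RefSeq promoter windows of 300 bases (250 before the start and 50 after it) were found for 36 of the 50 genes. The ACAN sequence holds 6 copies of GGGCGG and no AGGCCT, that of TIMP3 5 and none, and that of HSPG2 8 and 1, with overlapping copies counted apart. GGGCGG, searched on both strands, was present in 29 of the 36 windows (80.6%), against 44.95% of all 35116 windows of that length. AGGCCT, which reads the same on both strands, was present in 3 (8.33%, THBS2, HSPG2 and TIMP1), against 10.9% of all windows. TATAAA was in 11.1% against 11.5%, and CCAAT in 30.6% against 34.6%, both searched on both strands; none of the 4 motifs contains another. The median GC content was 70.5% for the 36 genes and 58.67% for all windows. The 36 genes all code for proteins and entered with a single window each, while the 35116 windows were not limited in either way. The sets are therefore not matched. A match describes letters in this window and nothing about a factor.

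Levels between genes are compared per length, as CPM per kilobase of merged exons (RPKM). In LN-229 these genes took 2.36% to 2.91% of all gene counts, against 0.174% to 0.237% in DKO cells. SPARC, a collagen-binding glycoprotein, led the order in siControl at 819 ± 35.6 RPKM (SD, n = 3). TIMP1, an inhibitor of metalloproteinases, stood at 389.5 ± 16.3 and MMP2, the gelatinase it can inhibit, at 376 ± 7.06 RPKM, and their ranges overlapped. TIMP3 (252 ± 8.48), the antiadhesive glycoprotein gene TNC (189 ± 9.78) and the laminin linker NID1 (172 ± 4.67) followed in RPKM, each apart from its neighbours. Next came TIMP2 (151 ± 1.799), THBS2 (146 ± 6.22), THBS1 (141 ± 2.44), FN1 (135 ± 5.199), LAMC1 (130.2 ± 4.45) and COL11A1 (127 ± 2.46 RPKM), and each of these overlapped the next. The cartilage-type fibrillar collagen gene COL11A1 stood far above the genes of collagen I and III, with COL1A1 at 1.11 ± 0.237, COL3A1 at 0.202 ± 0.0428 and COL1A2 at 0.0536 ± 0.0206 RPKM. Of the brain hyaluronan-binding genes, versican (VCAN) stood at 58.5 ± 2.55 RPKM, aggrecan at 0.596 ± 0.0304, brevican (BCAN) at 0.292 ± 0.0824 and neurocan (NCAN) at 0.00518 ± 0.00529. Over the 49 neighbouring pairs in this order, 23 had ranges that overlapped. At least 10 RPKM was reached by 31 genes in siControl, 32 in siControl_2 and 5 in the empty vector.

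With the empty vector, 27 of the genes reached 1 RPKM in DKO cells, where 39 did in siControl of LN-229; levels were not tested between the lines. NID1 led at 36.1 ± 0.977 RPKM, then LAMC1, the laminin gamma chain, at 25.03 ± 0.443, TIMP1 at 15.7 ± 0.553, and the beta chain genes LAMB2 at 12.5 ± 0.281 and LAMB1 at 11.3 ± 0.156. SPARC was at 0.385 ± 0.0471 RPKM there, TNC at 0.844 ± 0.0134 and FN1 at 3.19 ± 0.1697. COL1A2 and the link protein gene HAPLN1 had 0 counts in all 3 libraries of the empty vector. The elastic fibre gene FBLN1 (6.75 ± 0.339 RPKM), the cross-linking enzyme gene LOX (8.87 ± 0.445) and LAMA5 (5.697 ± 0.231) stood higher per length in DKO cells than in siControl of LN-229, where they were at 0.112 ± 0.0342, 0.578 ± 0.125 and 0.678 ± 0.108 RPKM. The test could be made for 49 of the 50 genes in LN-229, all but NCAN, and for 43 in DKO cells, all but COL1A2, COL11A1, THBS2, POSTN, MGP, HAPLN1 and DCN.

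A gene was called higher or lower where edgeR's quasi-likelihood test gave a Benjamini-Hochberg adjusted p of at most 0.05 over all tested genes of the cell line. With siZFX, 14 of the 49 tested genes were called higher and 13 lower against siControl, where 13.8% and 17.1% of all tested genes were. The median log2 change of the 49 was -0.067, and that of all genes 0.017. With siZNF593, 10 were higher and 13 lower against siControl (12.2% and 14.6% of all genes), with a median of -0.059 against 0.02. In the double knockdown, 4 were higher and 26 lower against siControl_2 (17.6% and 20.6% of all genes), with a median of -0.29 against 0.006. In DKO cells wtZFX gave 18 higher and 1 lower of 43 against the empty vector (23.2% and 19.2% of all genes), and ZFX12_13 gave 16 and 3 (20.9% and 15.7%). The 8 glial markers, of which none was at 0, summed to 6743 to 6956 CPM in siControl, 6187 to 6405 with siZFX, 4352 to 4649 with siZNF593, 6824 to 7325 in siControl_2 and 3995 to 4766 in the double knockdown, and their part in these counts was not tested.

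**Figure D1:**
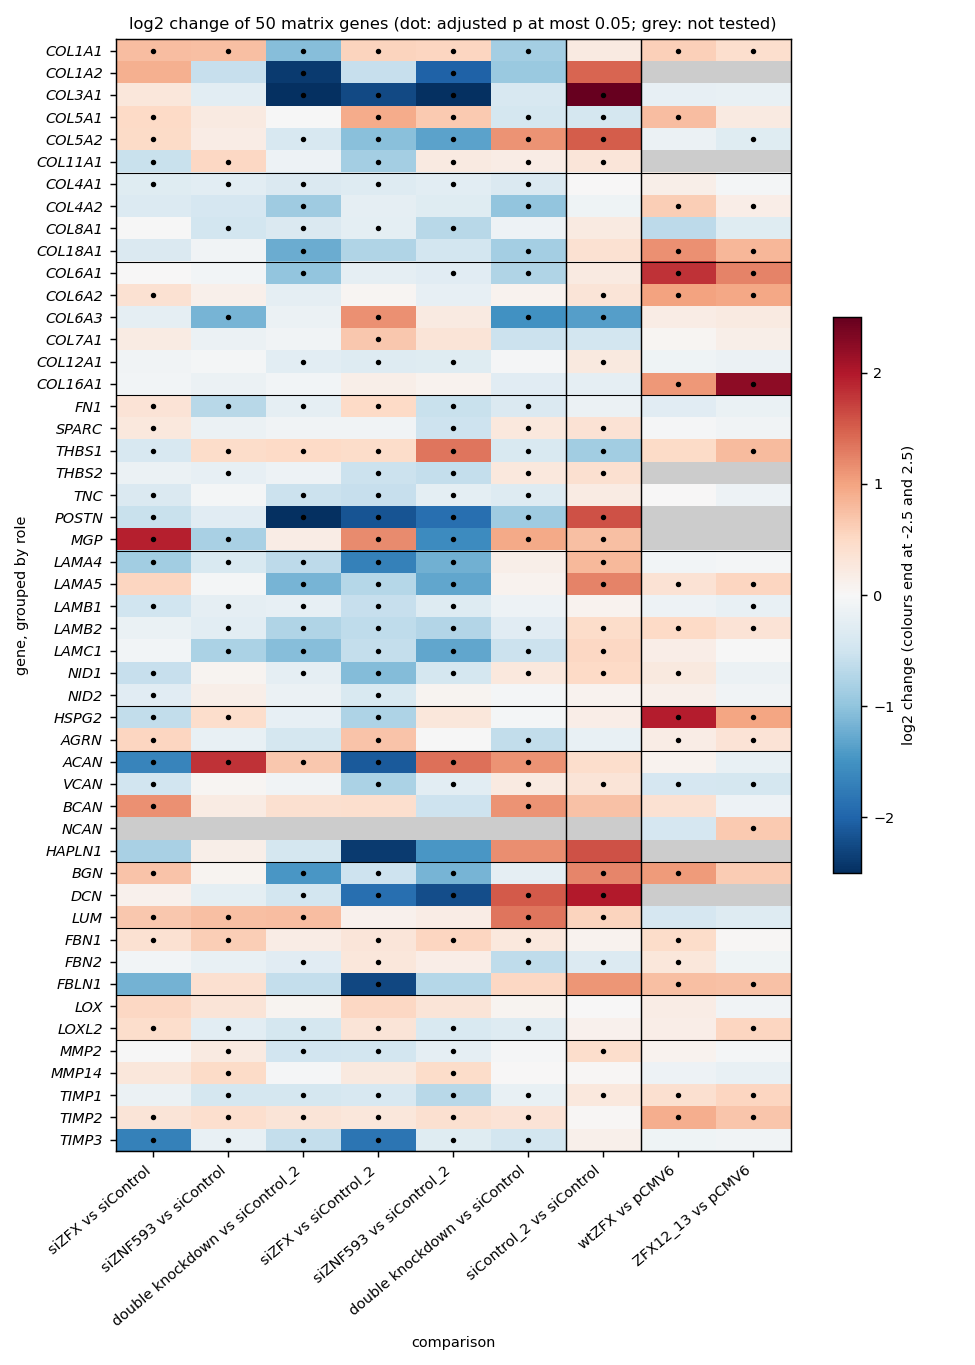
The log2 change of each of the 50 genes (vertical axis, in blocks by role) in 9 comparisons (horizontal axis), as colour from blue (lower) to red (higher). Black dots mark an adjusted p of at most 0.05 and grey cells were not tested; the double knockdown column against siControl_2 is blue for most collagens and laminins, and the column of siControl_2 against siControl is red for many of the same genes.

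Many of these genes differed between the 2 control sets of LN-229, and this bears on every knockdown count. Against siControl, siControl_2 had 20 of the 49 genes higher and 4 lower, where 5.43% and 4.88% of all tested genes were called. The median log2 difference of the 49 was 0.26. Collagen III (COL3A1), a fibril collagen of soft tissue, stood at 1.35, 1.1 and 1.68 CPM in siControl and at 7.65, 7.48 and 8.64 CPM in siControl_2 (log2 change 2.53 with SE 0.31, adjusted p = 3.9e-06). The fibril-binding proteoglycan decorin (DCN) read 9.34, 11.1 and 8.32 against 38.3, 37.6 and 38.6 CPM (log2 change 1.99 with SE 0.13, adjusted p = 6.4e-10). For both genes the 2 sets of 3 libraries did not overlap. Periostin (POSTN), a matricellular protein that binds collagen, rose from 6.57, 6.36 and 5.17 to 19.4, 16.3 and 19.4 CPM (log2 change 1.60 with SE 0.17, adjusted p = 5.9e-07). COL5A2, a chain of the collagen that seeds fibrils, rose from 18.7, 18.98 and 14.1 to 45.6, 52.8 and 50.3 CPM (log2 change 1.52 with SE 0.11, adjusted p = 2.6e-09). Neither gene had a siControl library within the siControl_2 range. Biglycan (BGN), another small leucine-rich proteoglycan, had 8.98, 11.03 and 9.44 CPM in siControl and 22.6, 21.7 and 24.6 CPM in siControl_2 (log2 change 1.23).

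Most laminin genes were higher in siControl_2 as well. LAMA4, an alpha chain of vessels and muscle, stood at 429, 432 and 399 CPM in siControl and 729, 702 and 777 CPM in siControl_2 (log2 change 0.81 with SE 0.064, adjusted p = 7.0e-09). LAMC1 stood at 1121, 1110.5 and 1052 CPM in siControl and at 1558, 1559.7 and 1598 CPM in siControl_2 (log2 change 0.52 with SE 0.058, adjusted p = 1.3e-06). No library of one control set reached the range of the other for these genes. LAMA5, LAMB2 and NID1 were also called higher (log2 change 1.25, 0.47 and 0.50), so that 5 of the 7 laminin and nidogen genes were. LAMA5 is less firm than the rest: in the larger of the 2 stranded columns its log2 change was 0.0023. Those columns held nearly equal counts in every library (ratio 1.003 to 1.027), so they hardly separate the strands. About 2.54% of LAMA5's exon length is shared with other genes, among them ADRM1 on the opposite strand. Which column counts LAMA5 better was not tested. Going the other way, COL6A3, a chain of the beaded filaments of collagen VI, fell from 6.86, 9.18 and 6.64 to 2.86, 2.91 and 2.97 CPM (log2 change -1.38 with SE 0.21, adjusted p = 6.6e-05) and THBS1, the thrombospondin that can activate latent TGF-beta, from 1314, 1280.0 and 1272 to 644, 722 and 749 CPM (log2 change -0.87 with SE 0.068, adjusted p = 5.3e-09). COL5A1 and FBN2 were the other 2 called lower. Without replicate 1 of siControl_2 only 2 genes were called lower, COL5A1 (log2 change -0.44) and FBN2 (-0.28) losing the call.

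Fibroblast or stromal markers, of which 5 of 5 stood at 1 CPM or more in LN-229, summed to 211 to 226 CPM in siControl and 236 to 254 CPM in siControl_2, with none of the 5 at 0. Their part in the difference between the control sets was not tested. FAP, one of them, read 21.0 to 25.4 CPM in siControl, 38.7 to 41.3 in siControl_2 and 39.3 to 42.5 with siZFX, while PDGFRA read 12.6 to 14.6, 13.0 to 14.5 and 8.28 to 9.26 CPM in the same groups. The sum ran from 245 to 263 CPM with siZFX, from 153 to 161 with siZNF593 and from 174 to 184 in the double knockdown. What else set the control sets apart (a day, a passage, a batch) is not given in the sources used here and cannot be told apart from the set itself.

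**Figure D2:**
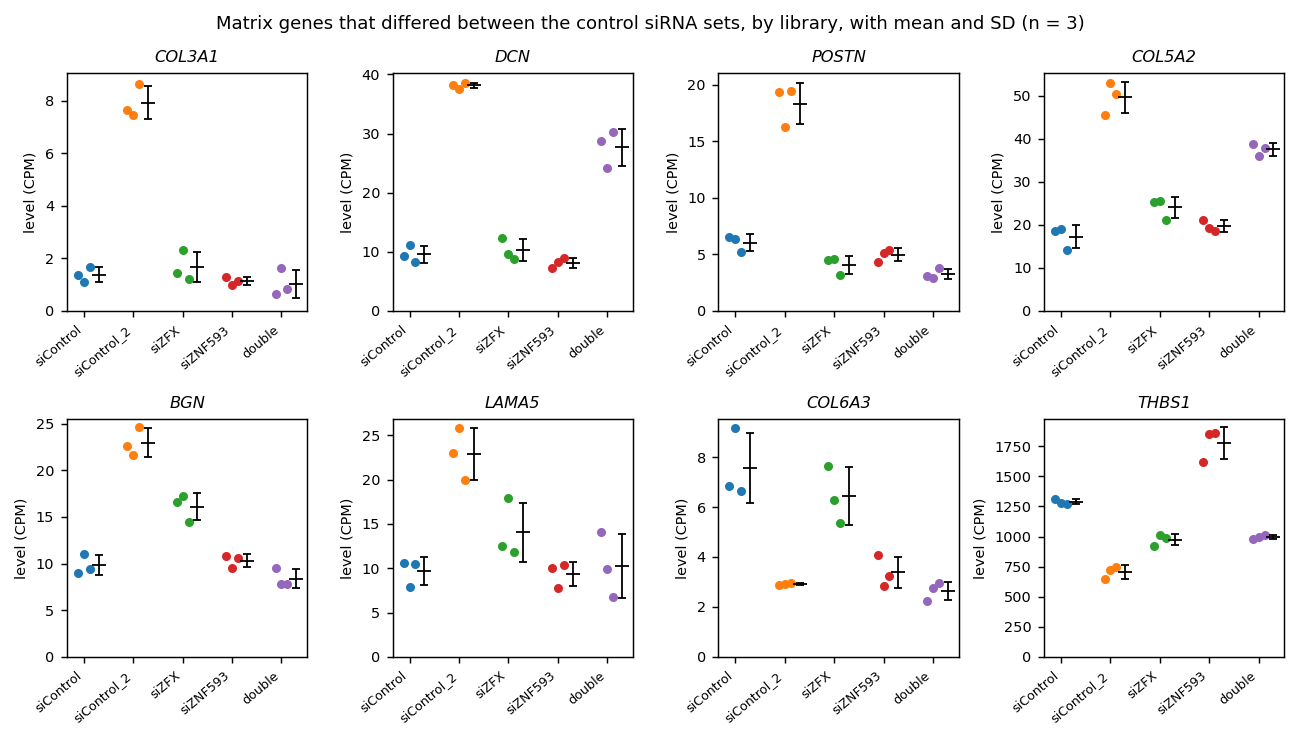
Level in CPM (vertical axes, from 0) of 8 genes in each LN-229 library (points), with the mean and SD of 3 libraries beside them, by group (horizontal axes). In the panels of COL3A1, DCN, POSTN, COL5A2 and BGN the siControl_2 libraries stand above all siControl libraries, and in those of COL6A3 and THBS1 below them.

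Each knockdown is therefore set against both control sets below; these comparisons share the knockdown libraries and so are not independent. Against siControl_2, siZFX had 12 higher and 25 lower of the 49 (17.9% and 20% of all genes), siZNF593 8 and 26 (14.2% and 16.4%). The double knockdown against siControl had 13 and 18 (18.7% and 22% of all genes). Called the same way against both were 8 higher and 12 lower of the 49 genes for siZFX, where 10.3% and 14% of all genes tested were. For siZNF593 they were 7 and 12 (7.93% and 10.4% of all genes), and for the double knockdown 3 and 14 (12.4% and 15.9% of all genes). COL5A2 and BGN rose with siZFX against siControl and fell against siControl_2, and THBS1 did the reverse. MMP2 did so for siZNF593 (higher against siControl, lower against siControl_2). In the double knockdown NID1, COL5A2 and DCN were lower against siControl_2 and higher against siControl, and THBS1 the reverse.

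Aggrecan, the large proteoglycan that fills cartilage and perineuronal nets, moved in opposite directions with the 2 single knockdowns. ACAN read 6.64, 6.74 and 6.12 CPM in siControl, 2.08, 2.41 and 1.73 CPM with siZFX and 21.8, 21.6 and 25.1 CPM with siZNF593. All siZFX libraries lay below, and all siZNF593 libraries above, every control library of either set. It fell to 31.9% of control with siZFX (log2 change -1.65 with SE 0.18, adjusted p = 2.4e-07; -2.09 against siControl_2) and rose 3.505-fold with siZNF593 (log2 change 1.81 with SE 0.15, adjusted p = 5.4e-09; 1.37 against siControl_2). The direct difference of siZFX from siZNF593 was -3.46 on the log2 scale (SE 0.18, adjusted p = 4.5e-13). In siControl_2 ACAN read 10.3, 6.67 and 9.51 CPM and in the double knockdown 14.3, 15.4 and 12.6 CPM, above all control libraries (log2 change 0.67 with SE 0.15, adjusted p = 0.0012; 1.11 against siControl). That double knockdown effect lay 2.32 above that of siZFX (SE 0.24, adjusted p = 2.2e-07) and below that of siZNF593 (difference -1.14, adjusted p = 8.0e-04). Its promoter, printed above, holds GGGCGG but no AGGCCT.

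The other genes of this role were called less often against their own control sets. Versican, the hyaluronan-binding proteoglycan of loose tissue and glioma, fell with siZFX from 910.4, 856 and 838 to 597, 632 and 638 CPM (log2 change -0.48 with SE 0.084, adjusted p = 9.9e-05; -0.80 against siControl_2). Neither siZNF593 (log2 change 0.045) nor the double knockdown (-0.095) was called for VCAN against its own control set. Against siControl, 3 of the 4 tested genes of this role, ACAN among them, were higher in the double knockdown and 0 lower (18.7% and 22% of all genes). With siZNF593 against siControl_2, 1 was higher, ACAN, and 1 lower (14.2% and 16.4% of all genes). Brevican, a proteoglycan of brain, rose with siZFX from 1.53, 1.79 and 0.992 to 2.88, 3.33 and 3.34 CPM (log2 change 1.13 with SE 0.31, adjusted p = 0.0073), without overlap, but against siControl_2 its log2 change was 0.41 and not called. About 13.8% of BCAN's exon length is shared with genes on the other strand, so its counts are uncertain. HAPLN1 stayed under 1 CPM in every LN-229 library and was called in none of the knockdown comparisons. Counting noise limits it most.

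TIMP3, the inhibitor that stays bound to the matrix, showed the largest fall of the 49 genes with siZFX. Its libraries read 1131, 1203 and 1143 CPM in siControl and 333, 379 and 359.9 CPM with siZFX, with every siZFX library far below every control library. That left 30.8% (log2 change -1.70 with SE 0.061, adjusted p = 7.3e-15; -1.82 against siControl_2). With siZNF593 it read 1005, 1002 and 1067 CPM (log2 change -0.18 with SE 0.059, adjusted p = 0.029; -0.30 against siControl_2), a call lost without replicate 2 or 3 of siControl (log2 change -0.16 and -0.19) or replicate 1 or 2 of siZNF593 (-0.19 and -0.18). The double knockdown stood between, at 823, 836 and 857 CPM against 1285, 1249 and 1261 CPM in siControl_2 (log2 change -0.59 with SE 0.06, adjusted p = 5.7e-08; -0.47 against siControl). Its fall was smaller than that of siZFX by 1.10 on the log2 scale (SE 0.084, adjusted p = 2.8e-09).

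The other inhibitors went different ways. TIMP2, which inhibits MMP2 and also helps MMP14 activate it, rose in all 3 knockdowns and against either control set. It read 853, 843 and 863 CPM in siControl, 1085, 1065 and 1034 with siZFX and 1157, 1167 and 1121 with siZNF593, then 865, 833 and 911 in siControl_2 and 1065, 989 and 1191 in the double knockdown. All 9 knockdown libraries lay above all 6 control libraries, with log2 changes of 0.32, 0.43 and 0.32 (adjusted p = 5.3e-04, 2.2e-05 and 4.4e-04). TIMP1 fell with siZNF593 from 575, 625 and 601 to 460.4, 449.9 and 425 CPM (log2 change -0.43 with SE 0.074, adjusted p = 1.0e-04) and in the double knockdown from 763, 645 and 747 to 534, 545 and 503 CPM (log2 change -0.45 with SE 0.074, adjusted p = 4.5e-05; -0.19 against siControl). With siZFX it was called against siControl_2 only (-0.14 and -0.40).

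Among the proteases, MMP14, the membrane-bound collagenase, rose with siZNF593 from 231, 242 and 225 to 345, 287 and 342 CPM (log2 change 0.48 with SE 0.13, adjusted p = 0.011; 0.45 against siControl_2). With siZFX it read 292, 282 and 272 CPM and was not called (log2 change 0.28, adjusted p = 0.12). MMP2 read 1833, 1896 and 1839 CPM in siControl, 1877, 1863 and 1769.5 with siZFX and 1782, 1906 and 1774 in the double knockdown, in ranges that overlapped. It was higher in siControl_2 at 2664, 2368 and 2533 CPM, and the call of a fall in the double knockdown (-0.47) therefore ended against siControl (-0.028). All siZFX libraries of MMP2 lay below these siControl_2 libraries too.

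Matrix Gla protein (MGP), a small protein that blocks calcification, had the largest rise with siZFX. It read 14.3, 17.6 and 18.1 CPM in siControl, 66.5, 68.4 and 57.5 with siZFX and 9.52, 10.8 and 8.07 with siZNF593. Every siZFX library was more than 3 times the mean of siControl, and no siZNF593 library reached a control library. The rise was 3.85-fold (log2 change 1.94 with SE 0.16, adjusted p = 2.4e-08; 1.19 against siControl_2) and the fall with siZNF593 left 56.8% (log2 change -0.81 with SE 0.17, adjusted p = 0.0015; -1.56 against siControl_2). Between siZFX and siZNF593 the log2 difference was 2.76 (SE 0.17, adjusted p = 2.4e-10). MGP read 26.3, 28.3 and 41.8 CPM in the double knockdown against 31.4, 23.99 and 28.7 CPM in siControl_2 and was not called (log2 change 0.19, adjusted p = 0.35).

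Fibronectin (FN1), the glycoprotein that integrins gather into fibrils, also split by knockdown. FN1 stood at 2440.2, 2314 and 2266 CPM in siControl, 2849, 3176 and 2884 with siZFX and 1350.0, 1403 and 1587 with siZNF593. The siZFX libraries were all higher than siControl and the siZNF593 libraries all lower. The log2 changes were 0.34 with SE 0.072, adjusted p = 6.7e-04 for siZFX (0.49 against siControl_2) and -0.69 with SE 0.072, adjusted p = 1.2e-07 for siZNF593 (-0.55), a difference of 1.04 (SE 0.072, adjusted p = 8.2e-11). With both siRNAs FN1 read 1862, 1631 and 1943 CPM against 2085, 2083 and 2181 CPM in siControl_2 (log2 change -0.22 with SE 0.072, adjusted p = 0.016; -0.37 against siControl). Without replicate 2 of the double knockdown that fall was -0.13, and it was not called then or without replicate 3 of siControl_2 (-0.18).

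Tenascin C, an antiadhesive glycoprotein of glioma stroma, fell with siZFX from 1919, 1803 and 1733 to 1364, 1492 and 1375 CPM (log2 change -0.37 with SE 0.073, adjusted p = 4.0e-04) and in the double knockdown from 2155, 2072 and 2093 to 1571, 1449 and 1350.1 CPM (log2 change -0.53 with SE 0.073, adjusted p = 4.1e-06; -0.32 against siControl). With siZNF593 TNC read 1765, 1588 and 1951 CPM, overlapping siControl, and was not called against it (-0.041). Against siControl_2, siZNF593 had 1 of the 7 genes of this role higher (THBS1) and 6 lower, TNC and SPARC among them. Of all genes tested, 14.2% were higher and 16.4% lower there. Periostin read 4.47, 4.63 and 3.17 CPM with siZFX (log2 change -0.57 with SE 0.18, adjusted p = 0.019; -2.17 against siControl_2) and 3.11, 2.91 and 3.803 CPM in the double knockdown (-2.48 against siControl_2 and -0.88 against siControl, both called). The siZFX call against siControl was lost without replicate 1 or 2 of siControl (-0.50 and -0.53) or replicate 3 of siZFX (-0.41). SPARC, the gene of highest level, read 3843, 4156 and 3877 CPM in siControl and 4724, 5003 and 4505 CPM with siZFX (log2 change 0.26 with SE 0.059, adjusted p = 0.0013), but against siControl_2 its log2 change was -0.093. THBS2 was called lower with siZNF593 against both sets (-0.20 and -0.60); the first call was lost without replicate 1 or 2 of siControl (-0.19 and -0.20).

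THBS1 also changed direction with the control set. It read 922, 1017 and 986 CPM with siZFX, 978, 993 and 1014 CPM in the double knockdown and 1622, 1853 and 1860.4 CPM with siZNF593. The siZFX and double knockdown libraries lay between the 2 control sets, below siControl and above siControl_2, and only siZNF593 lay above both. Its log2 change was accordingly 0.46 and 1.33 for siZNF593, -0.40 and 0.47 for siZFX, and -0.37 and 0.50 for the double knockdown, against siControl and siControl_2 in that order.

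Of the 7 laminin and nidogen genes, 4 were lower with siZFX, 4 with siZNF593 and 6 in the double knockdown, each against its own control set. Against the other set, 7 were lower with siZFX, 6 with siZNF593 and 2 in the double knockdown, where 1 was higher and the median log2 change was -0.049 against -0.66 with siControl_2. Of all genes tested, 17.1%, 14.6% and 20.6% were lower in the first 3 comparisons and 20%, 16.4% and 22% in the others. By edgeR none was called higher against its own set; at an unadjusted p of at most 0.05, and by DESeq2, 1 was with siZFX (LAMA5, edgeR log2 change 0.54, adjusted p = 0.079) and 0 in the others. LAMC1 encodes the gamma chain shared by most laminins. It read 1121, 1110.5 and 1052 CPM in siControl, 1009, 1063 and 1047 with siZFX and 608, 623 and 677 with siZNF593, so that only siZNF593 stood clear of siControl. It fell with siZNF593 to 58.1% (log2 change -0.78 with SE 0.058, adjusted p = 6.1e-10; -1.30 against siControl_2). In the double knockdown it read 761, 730.4 and 766 CPM, below every control library (log2 change -1.06 with SE 0.059, adjusted p = 6.5e-12; -0.54 against siControl). With siZFX its log2 change was -0.074 against siControl, not called, and -0.60 against siControl_2, called.

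LAMA4 fell in both single knockdowns, to 234, 236 and 217 CPM with siZFX (log2 change -0.88 with SE 0.064, adjusted p = 4.6e-10; -1.68 against siControl_2) and 311, 315 and 337 CPM with siZNF593 (log2 change -0.39 with SE 0.064, adjusted p = 6.5e-05; -1.20). In the double knockdown it read 449, 465 and 483 CPM, below siControl_2 but above all siControl libraries (-0.66, called, and 0.15, not called). LAMB1, a beta chain, read 852, 827 and 846 CPM in siControl, 599, 598 and 593 with siZFX (log2 change -0.50 with SE 0.06, adjusted p = 1.0e-06) and 682, 709.9 and 761 with siZNF593 (log2 change -0.23 with SE 0.06, adjusted p = 0.0061), with no overlap of either with siControl. Its small fall in the double knockdown (-0.20) was not called against siControl, nor without replicate 1 or 2 of the double knockdown (-0.17 and -0.14) or replicate 3 of siControl_2 (-0.17). LAMB2, the synaptic and kidney beta chain, fell with siZNF593 (-0.27) and in the double knockdown (-0.75; -0.28 against siControl), and the first call was lost without replicate 3 of siControl (-0.23) or replicate 2 of siZNF593 (-0.26).

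The nidogens link laminin to collagen IV. NID1 fell with siZFX from 1039.6, 1000.1 and 987 to 661, 697 and 665 CPM (log2 change -0.58 with SE 0.059, adjusted p = 6.5e-08; -1.08 against siControl_2) and stood at 1045, 1033 and 1093 CPM with siZNF593 (log2 change 0.067, not called). All siZNF593 libraries lay below those of siControl_2, where NID1 averaged 243 RPKM against 172 in siControl. In the double knockdown NID1 read 1294, 1145 and 1209 CPM, between the control sets. NID2 was called lower with siZFX (-0.29 and -0.38), but 29.96% of its exon length lies within RTRAF on the opposite strand and reads there could not be split. Its call against siControl was lost without replicate 1 of siControl (-0.23) or replicate 1 or 3 of siZFX (-0.29 and -0.28).

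**Figure D3:**
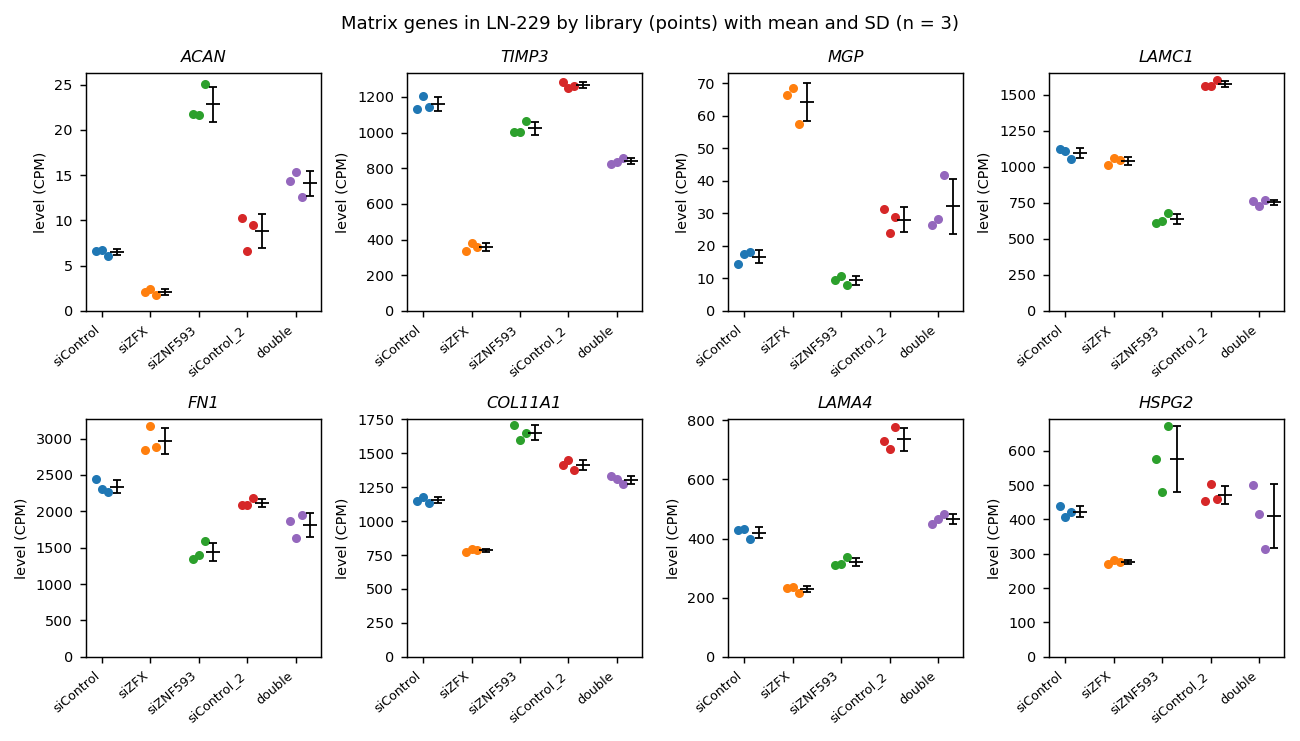
Level in CPM (vertical axes, from 0) of 8 genes in each LN-229 library (points), with the mean and SD of 3 libraries beside them, by group (horizontal axes). ACAN, COL11A1 and HSPG2 stand lower with siZFX and higher with siZNF593 than in siControl, MGP and FN1 the other way round, and LAMC1 falls with siZNF593 and in the double knockdown.

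Perlecan and agrin are the heparan sulfate proteoglycans of basement membranes. HSPG2 fell with siZFX from 439, 406 and 420.5 to 271, 281 and 276 CPM (log2 change -0.61 with SE 0.14, adjusted p = 0.0042; -0.77 against siControl_2), with no overlap. With siZNF593 it spread over 575, 478 and 672 CPM (log2 change 0.45 with SE 0.14, adjusted p = 0.03), and this call was lost without replicate 1, 2 or 3 of siControl (0.47, 0.41 and 0.44), without replicate 1 or 3 of siZNF593 (0.42 and 0.30) and against siControl_2 (0.29). Between siZFX and siZNF593 the difference was -1.06 (SE 0.14, adjusted p = 3.2e-05). AGRN, which also clusters acetylcholine receptors, read 231, 223 and 249.6 CPM in siControl and 325, 366 and 325 with siZFX, again without overlap (log2 change 0.53 with SE 0.18, adjusted p = 0.038; 0.71 against siControl_2). That call was lost when any 1 of the 6 libraries concerned was left out, with log2 changes of 0.47 to 0.58. HSPG2 shares 11.7% of its exon length with LDLRAD2 on the other strand.

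Of the 6 fibrillar collagen genes, 3 were called higher and 1 lower with siZFX, 2 higher and 0 lower with siZNF593, and 0 higher and 4 lower in the double knockdown, each against its own control set. Against the other set they were 2 and 3, 3 and 3, and 2 and 2 in that order. The shares of all genes called in these comparisons are those given above for the 49 genes. DESeq2 gave the same counts against their own sets, and both counts of 0 also stood at an unadjusted p of at most 0.05 by edgeR. COL1A1, the main chain of collagen I, read 9.93, 9.25 and 13.6 CPM in siControl, 19.1, 18.6 and 18.3 with siZFX and 16.5, 19.7 and 19.03 with siZNF593. Both single knockdowns stood above all control libraries of either set (0.78 with SE 0.19, adjusted p = 0.0027 on the log2 scale for siZFX, and 0.76 with SE 0.19, adjusted p = 0.0043 for siZNF593). With both siRNAs COL1A1 read 8.66, 5.53 and 4.04 CPM against 13.3, 12.5 and 12.1 in siControl_2, below both control sets (log2 change -1.06 with SE 0.20, adjusted p = 2.2e-04; -0.84 against siControl). Its double knockdown effect therefore lay below that of siZFX by a log2 difference of -1.84 (SE 0.27, adjusted p = 5.2e-05) and below that of siZNF593 by -1.82 (SE 0.27, adjusted p = 9.2e-05).

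COL11A1, which nucleates fibrils with collagen V, fell with siZFX and rose with siZNF593. It read 1150.5, 1177 and 1133 CPM in siControl, 772, 798 and 784 with siZFX (log2 change -0.56 with SE 0.054, adjusted p = 4.2e-08) and 1706, 1599 and 1651 with siZNF593 (log2 change 0.52 with SE 0.054, adjusted p = 1.5e-07). No library of these 3 groups overlapped another group, and both calls held against siControl_2 (-0.85 and 0.22). COL5A1 rose with siZFX from 435, 437 and 434 to 599, 642 and 600.3 CPM (log2 change 0.50 with SE 0.12, adjusted p = 0.0041; 0.93 against siControl_2). COL5A2, its partner chain, read 25.4, 25.6 and 21.2 CPM with siZFX and 38.9, 35.95 and 37.9 CPM in the double knockdown, both between the control sets. COL3A1 read 1.46, 2.31 and 1.21 CPM with siZFX, 1.303, 0.983 and 1.15 with siZNF593 and 0.638, 1.63 and 0.823 in the double knockdown. It stood low in all of these and in siControl, and high in siControl_2 alone, so its fall in the double knockdown (log2 change -2.93 with SE 0.31, adjusted p = 1.5e-07) was not called against siControl (-0.40). The same held for COL1A2, at no more than 2.07 CPM in any LN-229 library (-2.39, called, and -0.93, not called).

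The collagen IV pair, whose shared start region is printed above, fell together in the double knockdown but not evenly. COL4A1 read 338, 328 and 302 CPM in siControl, 256, 277 and 249 with siZFX, 276, 254 and 275 with siZNF593, 329, 329 and 314 in siControl_2 and 268, 247 and 239 in the double knockdown. Every knockdown library lay below every control library, and all 3 falls were called (-0.31, -0.27 and -0.37, adjusted p = 0.0011, 0.0047 and 1.6e-04). COL4A2 read 632, 641 and 614 CPM in siControl, 490.1, 539 and 459 with siZFX and 514, 411 and 483 with siZNF593, then 617, 589.8 and 541 in siControl_2 and 401, 340.3 and 209 in the double knockdown. It was called in the double knockdown only (log2 change -0.88 with SE 0.18, adjusted p = 0.0024), with log2 changes of -0.34 and -0.42 for siZFX and siZNF593 (adjusted p = 0.19 and 0.11). COL8A1, a network collagen of vessel walls, fell with siZNF593 from 615, 629 and 592 to 437, 445 and 459 CPM (log2 change -0.45 with SE 0.077, adjusted p = 9.9e-05; -0.68 against siControl_2). COL18A1, the multiplexin whose end is cut to endostatin, read 156, 143 and 56.9 CPM in the double knockdown against 294, 292 and 258 in siControl_2 (log2 change -1.25 with SE 0.28, adjusted p = 0.0045). Without replicate 3, its lowest library, the log2 change was -0.91 and still called. About 16.4% of its exon length is shared with SLC19A1 on the other strand.

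Collagen VI forms beaded filaments from chains that COL6A1, COL6A2 and COL6A3 encode. COL6A1 read 406, 404 and 415 CPM in siControl, 413, 426 and 397 with siZFX and 415, 360.2 and 399.8 with siZNF593, in ranges that overlapped. In siControl_2 it read 493, 479 and 464 CPM, above every library of both single knockdowns as well. In the double knockdown it read 281, 243 and 200.2 CPM, below every other LN-229 library (log2 change -0.99 with SE 0.087, adjusted p = 8.0e-09; -0.76 against siControl). That effect differed from those of siZFX (log2 difference -1.0, SE 0.12, adjusted p = 2.8e-06) and siZNF593 (-0.93, SE 0.12, adjusted p = 1.5e-05). COL6A2 was called higher with siZFX (0.37) but not against siControl_2 (0.056), and COL6A3 lower with siZNF593 (-1.16) but not against siControl_2 (0.22). COL7A1, COL12A1 and COL16A1, of anchoring fibrils and fibril surfaces, had log2 changes between -0.27 and 0.21 in the 3 knockdowns against their own control sets, of which 1 was called, that of COL12A1 in the double knockdown (-0.27). It was not called against siControl (-0.031), nor without replicate 2 of the double knockdown (-0.20) or replicate 3 of siControl_2 (-0.22).

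Small leucine-rich proteoglycans coat collagen fibrils and limit their width. Lumican (LUM) read 56.2, 66.7 and 59.8 CPM in siControl, 100.5, 94.8 and 94.9 with siZFX, 95.5, 115 and 97.1 with siZNF593, 95.2, 81.8 and 93.2 in siControl_2 and 131, 149 and 183 in the double knockdown. The double knockdown stood above every control library (log2 change 0.78 with SE 0.10, adjusted p = 4.4e-06; 1.34 against siControl). Both single knockdowns stood above siControl, but siZFX overlapped siControl_2 and siZNF593 lay only just above it, with log2 changes of 0.67 and 0.75 that shrank to 0.10 and 0.19 against siControl_2, neither called. Biglycan read 16.6, 17.3 and 14.5 CPM with siZFX and 9.53, 7.796 and 7.803 CPM in the double knockdown, and decorin 12.4, 9.67 and 8.85 CPM with siZFX and 28.7, 24.2 and 30.2 CPM in the double knockdown. In biglycan the double knockdown overlapped siControl (log2 change -0.23, not called) and lay below siControl_2 (log2 change -1.46 with SE 0.13, adjusted p = 7.8e-09). Decorin lay between the control sets, -0.46 against siControl_2 and 1.53 against siControl.

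Microfibril and cross-linking genes gave smaller values. FBN1, the fibrillin of adult microfibrils, read 205, 196 and 181 CPM in siControl, 244, 269.6 and 247 with siZFX (log2 change 0.38 with SE 0.075, adjusted p = 3.2e-04) and 280.3, 282 and 328 with siZNF593 (log2 change 0.61 with SE 0.075, adjusted p = 1.4e-06), and both rises held against siControl_2 (0.30 and 0.53). The fetal fibrillin FBN2 fell in the double knockdown from 53.4, 62.6 and 59.5 to 46.8, 44.6 and 52.5 CPM (log2 change -0.29 with SE 0.08, adjusted p = 0.0067; -0.63 against siControl), though not without replicate 2 of the double knockdown (-0.21). LOXL2, an enzyme that cross-links collagen IV, read 503, 496 and 479 CPM in siControl and rose to 641, 704 and 665 with siZFX (log2 change 0.44 with SE 0.074, adjusted p = 6.1e-05) and fell to 434, 383 and 412 with siZNF593 (log2 change -0.27 with SE 0.074, adjusted p = 0.0099). It also fell in the double knockdown, from 557, 510.2 and 535 to 434, 402 and 346 CPM (log2 change -0.44 with SE 0.074, adjusted p = 5.9e-05), and all of these calls held against the other control set. LOX, at 2.26 to 5.64 CPM in all LN-229 libraries, and FBLN1, at no more than 2.26 CPM, were called in none of the 3 knockdowns against their own control sets.

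The knockdowns were also set against each other. With siZFX, 14 genes were called higher and 14 lower than with siZNF593 (19.8% and 20.7% of all tested genes), a comparison with no control library in it. MGP (2.76), COL1A2 (1.45), FN1 (1.04), COL6A3 (0.93) and BCAN (0.93) led the higher genes on the log2 scale. ACAN (-3.46), FBLN1 (-1.57), TIMP3 (-1.52), COL11A1 (-1.07), HSPG2 (-1.06) and THBS1 (-0.87) led the lower ones. COL1A2 lost its call without replicate 2 of siZFX or replicate 3 of siZNF593 (1.01 and 1.11), and FBLN1 without replicate 3 of siZFX (-1.23). BCAN lost it without replicate 2 or 3 of either group (0.90, 0.90, 0.63 and 0.92).

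The double knockdown effect, each time against siControl_2, was tested against each single knockdown effect against siControl. It was more positive than that of siZFX for 7 genes and more negative for 21 (8.76% and 8.97% of all tested genes). Against siZNF593 the counts were 3 and 18 (7.97% and 8.6%). Both differences carry the gap between the control sets, which lowers the double knockdown side for every gene that is higher in siControl_2. ZFX itself was also lowered less in the double knockdown than with siZFX, by the averages given above. The part of that unlike depth in these differences was not tested. Among genes with no called gap between the control sets were ACAN and TIMP3, whose double knockdown effect lay above that of siZFX, and COL1A1, COL6A1 and LOXL2 (log2 difference -0.88, adjusted p = 2.0e-06), whose effect lay below it. A gap that was not called still enters these differences, and all of these genes averaged higher in siControl_2. COL6A1 stood at 89.6 RPKM there against 76.4 in siControl, and ACAN at 0.809 against 0.596. LAMA5, the alpha chain of epithelial basement membranes, had differences of -1.70 and -1.12. They became -0.20 and -0.13 in the larger stranded column, with the limit of that column given above.

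Replicate 3 of the double knockdown stood apart from replicates 1 and 2 in the genome at large (chi-square per degree of freedom of 41.8 and 48.2 against them, and 5.35 between them), and these genes show it. In 24 of the 49 genes it was the lowest of the 3 libraries and in 19 the highest. Genes rich in GC stood low in it: at 55% GC or more in the longest transcript the median level was 68.3% of the mean of replicates 1 and 2 (21 genes), and below 55% it was 107.4% (28 genes). COL18A1 was at 38.1%, COL16A1 at 45.9%, LAMA5 at 56.2%, COL4A2 and AGRN at 56.3%, while MGP was at 153% and LUM at 130.4%. Across the 49 genes of this 1 library, Spearman's rho between GC content and that percentage was -0.80 and Pearson's r -0.38, as a description of genes that share a library. Without replicate 3, 6 genes were called higher and 29 lower against siControl_2. AGRN, VCAN and FBLN1 joined the lower ones and COL5A1 and MMP14 the higher ones, and no call of the full set was lost. The shares of all tested genes called without replicate 3 are not given, so these counts are not set against other genes. The library's part in the remaining values was not tested.

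**Figure D4:**
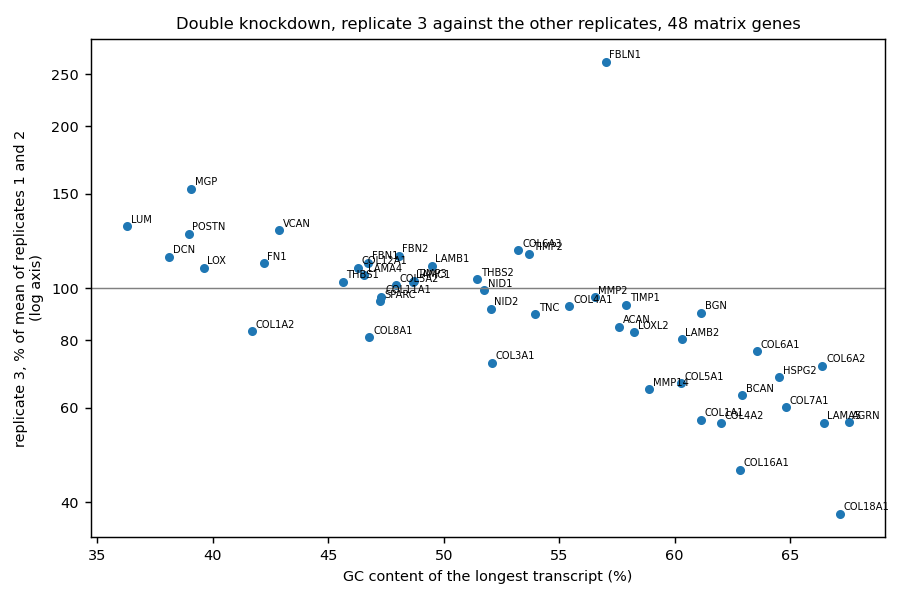
Each point is 1 of 48 genes (HAPLN1, at 953% on few counts, is left out): GC content of its longest transcript in percent (horizontal axis) against its level in replicate 3 of the double knockdown as a percent of the mean of replicates 1 and 2 (vertical axis, log scale, with a line at 100). Genes above about 58% GC lie below the line, and most genes below 50% lie near or above it.

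In DKO cells, returned ZFX was followed by rises of matrix genes far more often than by falls. ZFX counts averaged 224 CPM with the empty vector, 15534 CPM with wtZFX and 18895 CPM with ZFX12_13. Transcripts of a knocked-out gene can remain, so the empty vector value does not check the knockout. The 18 genes called higher with wtZFX make up 41.9% of the 43, beside 23.2% of all tested genes, and the 1 called lower was versican. The median log2 change of the 43 was 0.18 with wtZFX and -0.014 with ZFX12_13, beside -0.017 and -0.013 for all tested genes. Replicate 1 of ZFX12_13 stood apart from replicates 2 and 3 in the genome at large. Its chi-square per degree of freedom was 9.23 and 10.6 against them, and theirs was 2.52. The matrix genes took 0.174% of its gene counts, against 0.206% and 0.214% in replicates 2 and 3. Its part in the ZFX12_13 values was not tested beyond leaving it out.

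Perlecan, whose promoter is printed above, had the largest called rise of the 43 genes with wtZFX. HSPG2 read 10.96, 8.305 and 10.9 CPM with the empty vector, 40.4, 39.6 and 38.1 with wtZFX and 12.9, 23.5 and 23.2 with ZFX12_13. The wtZFX libraries were close together and above all others, and replicate 1 of ZFX12_13 lay only just above the empty vector. The rise was 3.91-fold with wtZFX (log2 change 1.97 with SE 0.20, adjusted p = 2.5e-05) and 1.97-fold with ZFX12_13 (log2 change 0.98 with SE 0.21, adjusted p = 0.0054). ZFX12_13 stood below wtZFX by a log2 difference of -0.99 (SE 0.18, adjusted p = 0.0042). Agrin rose less, from 107, 103 and 103 to 107, 127 and 121 CPM with wtZFX (log2 change 0.19 with SE 0.064, adjusted p = 0.023) and to 118, 133 and 143 CPM with ZFX12_13 (log2 change 0.34 with SE 0.064, adjusted p = 2.2e-04). One wtZFX library of AGRN lay at the empty vector's level, and the wtZFX call was lost without replicate 2 or 3 of either group (0.14, 0.17, 0.17 and 0.17).

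The genes of collagen VI and XVIII, neighbours on chromosome 21, rose with both constructs. COL6A1 (chr21:45981737-46005050) read 42.3, 43.1 and 42.9 CPM with the empty vector, 146, 153 and 148 with wtZFX (log2 change 1.80 with SE 0.051, adjusted p = 6.2e-18) and 102, 100.3 and 102 with ZFX12_13 (log2 change 1.25 with SE 0.051, adjusted p = 2.5e-15). COL6A2 (chr21:46098097-46132849) read 46.9, 46.03 and 48.04 CPM with the empty vector, 95.4, 97.1 and 91.3 with wtZFX and 91.1, 91.3 and 93.1 with ZFX12_13 (1.01 with SE 0.053, adjusted p = 1.3e-13 and 0.97 with SE 0.053, adjusted p = 4.0e-13 on the log2 scale). COL18A1 (chr21:45405137-45513720) read 38.5, 37.8 and 37.1 CPM with the empty vector, 83.2, 81.1 and 87.6 with wtZFX and 65.5, 65.3 and 70.7 with ZFX12_13 (1.15 with SE 0.057, adjusted p = 6.8e-14 and 0.83 with SE 0.059, adjusted p = 4.4e-11). In COL6A1 and COL18A1 the 3 groups were stepped without overlap, the empty vector lowest and wtZFX highest, and ZFX12_13 was called lower than wtZFX (-0.55 and -0.32). In COL6A2 both constructs stood far above the empty vector, and the difference between them was -0.043 (SE 0.051, adjusted p = 0.63). COL6A3, on chromosome 2, read 1.08 to 1.69 CPM over all 9 libraries and was not called. Coordinates are those of GENCODE 29 on GRCh38.

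Collagen XVI, which sits on fibril surfaces, was the gene in which ZFX12_13 most exceeded wtZFX. COL16A1 read 2.58, 2.35 and 2.67 CPM with the empty vector, 6.28, 5.13 and 4.85 with wtZFX (log2 change 1.09 with SE 0.15, adjusted p = 2.7e-06) and 12.8, 11.3 and 12.03 with ZFX12_13 (log2 change 2.25 with SE 0.14, adjusted p = 4.2e-12). The groups were stepped without overlap, and the constructs differed by 1.15 (SE 0.12, adjusted p = 2.3e-07). Neurocan, the hyaluronan-binding proteoglycan of brain that LN-229 hardly expressed, read 2.72, 3.05 and 2.93 CPM with the empty vector, 2.06, 2.79 and 1.74 with wtZFX and 4.07, 5.097 and 4.502 with ZFX12_13. It rose with ZFX12_13 (log2 change 0.65 with SE 0.18, adjusted p = 0.0055) and not with wtZFX (log2 change -0.41, adjusted p = 0.093), a difference of 1.06 (SE 0.19, adjusted p = 1.5e-04). LOXL2 was the third gene higher with ZFX12_13 than with wtZFX, at 18.6, 17.3 and 18.5 CPM with the empty vector, 20.1, 20.5 and 20.2 with wtZFX and 25.5, 25.9 and 27.2 with ZFX12_13 (difference 0.37, adjusted p = 6.6e-04). Between the constructs, 3 genes were higher and 10 were lower with ZFX12_13 (9.73% and 10.6% of all tested genes). Without replicate 1 of ZFX12_13 the count of higher genes was 6.

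Fibrillar and network collagens rose with wtZFX in part. COL5A1 read 8.51, 10.7 and 8.98 CPM with the empty vector, 16.7, 15.7 and 15.8 with wtZFX (log2 change 0.77 with SE 0.1, adjusted p = 9.1e-07) and 10.2, 11.3 and 11.5 with ZFX12_13 (log2 change 0.23, not called). Only wtZFX stood clear of the empty vector in COL5A1. COL1A1 rose with both, at 40.3, 38.9 and 41.3 CPM with the empty vector, 56.6, 67.04 and 58.7 with wtZFX and 50.9, 53.96 and 56.8 with ZFX12_13 (0.60 with SE 0.067, adjusted p = 9.9e-08 and 0.42 with SE 0.069, adjusted p = 2.7e-05 on the log2 scale). Of the collagen IV pair, COL4A2 rose with wtZFX from 60.8, 57.4 and 56.4 to 85.7, 93.4 and 86.8 CPM (log2 change 0.61 with SE 0.057, adjusted p = 5.7e-09), while COL4A1, with 37.6, 37.9 and 37.8 CPM for the empty vector and 40.6, 43.8 and 40.3 for wtZFX, was not called (log2 change 0.14, adjusted p = 0.12). With ZFX12_13 the rise of COL4A2 (0.16) was lost without replicate 2 or 3 of the empty vector (0.15 and 0.13) or replicate 3 of ZFX12_13 (0.11). COL5A2 was lower with ZFX12_13 (-0.31), a call lost without replicate 2 or 3 of the empty vector (-0.30 and -0.25) or replicate 1 of ZFX12_13 (-0.23).

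TIMP2 rose in DKO cells too, from 32.5, 30.3 and 27.6 CPM to 56.98, 60.4 and 53.1 with wtZFX (log2 change 0.91 with SE 0.068, adjusted p = 8.5e-11) and 49.7, 47.9 and 49.3 with ZFX12_13 (log2 change 0.70 with SE 0.07, adjusted p = 1.8e-08). TIMP1 rose as well, at 25.1, 23.5 and 23.8 CPM with the empty vector, 32.8, 30.7 and 32.6 with wtZFX and 36.01, 34.3 and 35.2 with ZFX12_13 (0.41 with SE 0.067, adjusted p = 2.7e-05 and 0.54 with SE 0.068, adjusted p = 7.4e-07). For both inhibitors every construct library lay above every empty vector library. TIMP3 stood at 42.7, 47.4 and 42.8 CPM with the empty vector, 39.7, 42.3 and 41.7 with wtZFX and 39.1, 44.5 and 41.8 with ZFX12_13, and neither construct was called (-0.10 and -0.085). Aggrecan, at 2.54, 2.58 and 2.27 CPM with the empty vector, 2.99, 2.34 and 2.53 with wtZFX and 1.77, 2.28 and 2.47 with ZFX12_13, was not called either (0.087 and -0.18). The cell lines were fitted apart, and no change in DKO cells was tested against one in LN-229.

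Laminin and elastic fibre genes completed the rises. LAMB2 read 85.8, 87.8 and 83.9 CPM with the empty vector, 113, 128 and 121 with wtZFX and 97.6, 112 and 119 with ZFX12_13 (log2 changes 0.49 and 0.35, both called). LAMA5 read 84.1, 82.4 and 77.7 CPM with the empty vector, 101, 112 and 103 with wtZFX and 98.4, 118 and 139.8 with ZFX12_13 (0.37 and 0.54, both called). NID1 was called higher with wtZFX (0.24), but not without replicate 1 or 2 of wtZFX (0.23 and 0.20) or any 1 library of the empty vector (0.22 to 0.26). LAMB1 was called lower with ZFX12_13 (-0.18), and not without any 1 library of the empty vector (-0.17 to -0.19) or replicate 1 of ZFX12_13 (-0.13). FBLN1, which binds fibronectin and elastic fibres, rose with both, at 51.97, 48.3 and 47.3 CPM with the empty vector, 79.5, 88.5 and 80.1 with wtZFX and 79.6, 83.5 and 82.6 with ZFX12_13 (0.75 with SE 0.059, adjusted p = 2.0e-10 and 0.74 with SE 0.059, adjusted p = 4.5e-10), with no overlap of either construct with the empty vector. FBN1 rose with wtZFX from 65.1, 59.6 and 61.5 to 90.7, 87.3 and 77.8 CPM (log2 change 0.46 with SE 0.10, adjusted p = 0.0026), and with ZFX12_13 read 50.3, 71.2 and 68.5 CPM (0.028, not called). FBN2 did likewise (0.29 and -0.11), its wtZFX call lost without replicate 2 of wtZFX (0.27). BGN, at no more than 1.96 CPM, was called higher with wtZFX (1.06), though not without replicate 1 of wtZFX (0.77). THBS1, at no more than 1.89 CPM, was called with ZFX12_13 (0.78), and lost the call without replicate 1 or 2 of the empty vector (0.46 and 0.91) or any 1 library of ZFX12_13 (0.69 to 0.83).

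Versican went the other way. VCAN read 85.8, 91.2 and 83.9 CPM with the empty vector, 65.7, 70.3 and 57.99 with wtZFX (log2 change -0.43 with SE 0.13, adjusted p = 0.02) and 49.8, 69.8 and 73.7 with ZFX12_13 (log2 change -0.43 with SE 0.13, adjusted p = 0.023). All libraries of both constructs lay below the empty vector, replicate 1 of ZFX12_13 lowest. Without that library the ZFX12_13 change was -0.28, and the call was lost without replicate 2 or 3 of the empty vector (-0.40 and -0.46). The count of genes lower with ZFX12_13 was 0 in both of those cases, 1 without replicate 1 of ZFX12_13, and 3 with all libraries. The count lower with wtZFX was 3 without replicate 2 of wtZFX.

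**Figure D5:**
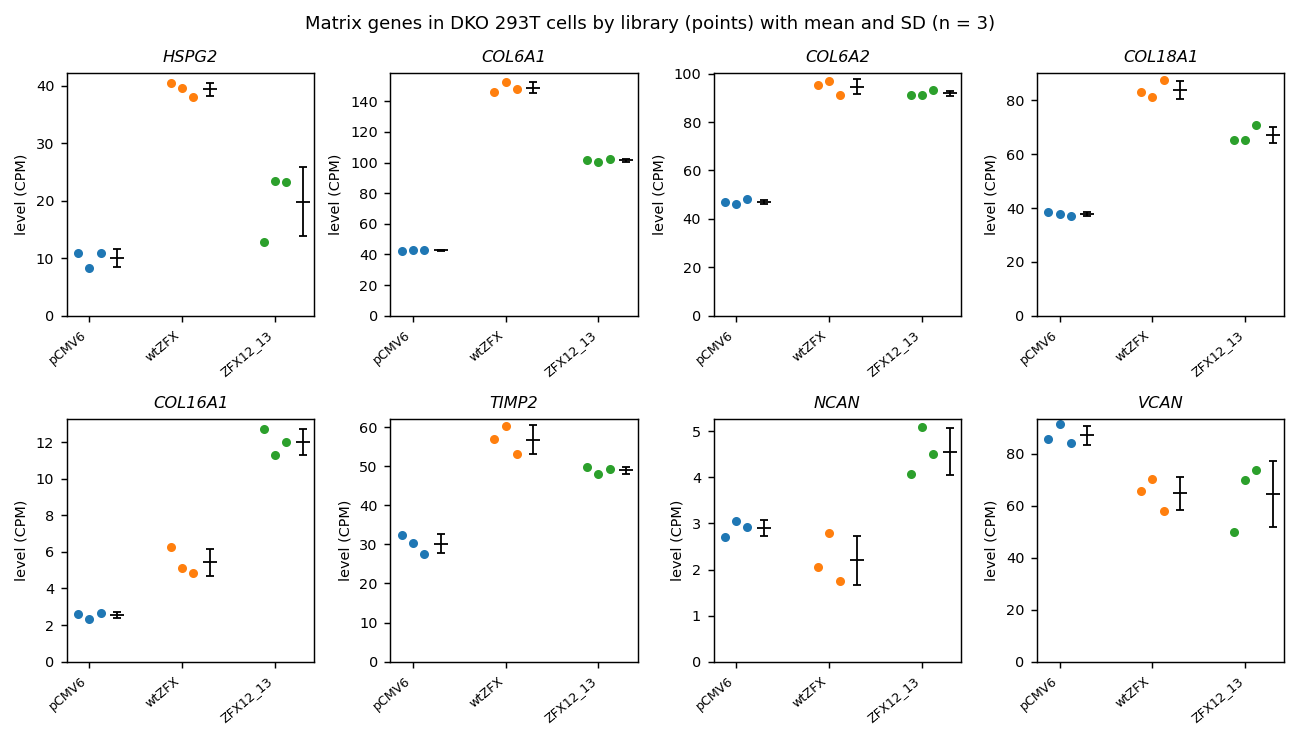
Level in CPM (vertical axes, from 0) of 8 genes in each DKO library (points), with the mean and SD of 3 libraries beside them, by group (horizontal axes). HSPG2, COL6A1 and COL18A1 step down from wtZFX to ZFX12_13 to the empty vector, COL16A1 and NCAN are highest with ZFX12_13, and VCAN is highest with the empty vector.

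Genes around the matrix were counted from 4 lists of related function, and of each list up to 3 genes a comparison, those of largest called change, may be named. Of 36 tested genes that build glycosaminoglycan chains, 2 were higher and 15 lower with siZFX, 6 and 7 with siZNF593, and 4 and 15 in the double knockdown, each against its own control set and beside the shares of all genes given above. Against the other set they were 6 and 16, 4 and 6, and 6 and 14. UXS1, which makes the UDP-xylose that starts these chains, fell with siZFX from 251 ± 7.14 to 89.1 ± 1.01 CPM (log2 change -1.49 with SE 0.064, adjusted p = 7.5e-14; -1.20 against siControl_2), and the chondroitin sulfotransferase gene CHST11 from 50.1 ± 2.88 to 20.04 ± 1.17 CPM (log2 change -1.32 with SE 0.094, adjusted p = 2.6e-10; -1.99 against siControl_2). HS6ST1, a heparan sulfate sulfotransferase, also fell in siZFX and double knockdown (-1.30 and -1.31 on the log2 scale; -1.04 and -1.58 against the other set). Of 23 tested genes of collagen folding and processing, 4 were higher and 7 lower with siZFX. With siZNF593 3 and 4 were, and in the double knockdown 5 and 10, beside the same shares of all genes. Against the other set they were 5 and 13, 5 and 6, and 8 and 4, so that in the double knockdown the balance turned with the control set. PLOD1, the lysyl hydroxylase that readies collagen for cross-links, fell with siZNF593 from 252 ± 9.48 to 52.4 ± 1.63 CPM (log2 change -2.27 with SE 0.091, adjusted p = 1.7e-14; -2.45 against siControl_2) and in the double knockdown from 287 ± 21.1 to 63.6 ± 10.1 CPM (log2 change -2.18 with SE 0.089, adjusted p = 6.3e-14; -1.99 against siControl).

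Of 28 tested matrix receptors, 7 were higher and 10 lower with siZFX. With siZNF593 4 and 10 were, and in the double knockdown 4 and 13, beside the shares of all genes given above. Against the other set they were 8 and 11, 4 and 16, and 9 and 11. CSPG4, a transmembrane proteoglycan of glioma cells that binds collagen VI, fell with siZFX from 301 ± 7.51 to 72.01 ± 1.48 CPM (log2 change -2.06 with SE 0.15, adjusted p = 8.4e-08; -3.21 against siControl_2, where it stood at 665 ± 60.3 CPM). DAG1, the dystroglycan that binds laminin, fell with it as well (799 ± 20.05 to 313 ± 8.303 CPM, log2 change -1.35; -1.58 against siControl_2). The integrin chain gene ITGA10 rose with siZFX, from 2.09 ± 0.538 to 6.99 ± 0.324 CPM (edgeR log2 change 1.73 with SE 0.24, adjusted p = 5.2e-06, and 1.43 against siControl_2). With siZNF593 the falls were led by ITGA9 (log2 change -1.60), SDC4 (-1.24) and CD44 (-0.97), receptors for tenascin, fibronectin and hyaluronan; against siControl_2 these were -2.85, -1.12 and -0.87. Of 28 tested further remodelling enzymes and inhibitors, 5 were higher and 8 lower with siZFX. With siZNF593 4 and 9 were, and in the double knockdown 7 and 12, beside the same shares of all genes. Against the other set they were 4 and 13, 4 and 14, and 8 and 7, and the median log2 change in the double knockdown was 0.11 there and -0.29 against its own set. RECK, a membrane inhibitor of metalloproteinases, and MMP15, a membrane protease, fell with siZFX (-0.95 and -0.95) and rose with siZNF593 (1.25 and 1.21). Against siControl_2 they were -1.51 and -1.05 with siZFX and 0.69 and 1.10 with siZNF593, all called. The direct differences were -2.20 (adjusted p = 6.1e-13) and -2.16 (adjusted p = 1.6e-10). In DKO cells 15 receptors of 29 tested were higher and 2 lower with wtZFX (23.2% and 19.2% of all tested genes). The laminin-binding integrin chain ITGB4 led the rises (5.23 ± 0.331 to 31.4 ± 2.09 CPM, log2 change 2.59 with SE 0.097, adjusted p = 4.9e-16). ITGB4 was lower with ZFX12_13 than with wtZFX (log2 difference -1.43, adjusted p = 3.1e-11).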

How the data were processed

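RNA-seq was made from 15 LN-229 and 9 DKO libraries. Gene counts were deposited by the authors as STAR tables with 3 count columns (unstranded and the 2 strands). Per the submitters' processing notes STAR, HTSeq and DESeq2 were used on GRCh38, also called hg38, with versions not given in the sources used here. The unstranded column was used throughout, so reads on exon stretches shared by genes on both strands were counted on neither. Antisense reads elsewhere in a gene cannot be told apart from its own. The 2 stranded columns held nearly equal counts in every library (ratio 1.003 to 1.027). Reads that met several genes or none stayed out of library sizes.

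Groups came from the labels. Each cell line was fitted on all its groups with edgeR 4.0.16 (quasi-likelihood, robust, TMM, filterByExpr) in R 4.3.3, with Benjamini-Hochberg adjustment over all tested genes and a threshold of 0.05. TMM factors ran from 0.9517 to 1.048 in LN-229 and 0.9785 to 1.018 in DKO cells. SE is the absolute log2 change divided by the square root of F. CPM uses TMM-scaled totals, and RPKM divides it by merged exon length. Library depth is given with the results, and counts limit precision most below about 1 CPM.

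Members and lists were chosen with earlier results of these data known. Library values are given for up to 8 called members a direction with the largest change and at least 1 CPM in the higher group, and for others their role asks for; up to 3 genes are named of each related list. Tried besides were upper-quartile and RLE factors, no filter, 1 CPM in 3 libraries, the larger stranded column, DESeq2 1.42.0, only the groups compared, a replicate block, the other control set, all 6 controls, a 1.5-fold limit and each library left out. On simulated data for siZFX against siControl (17188 genes) 56.7% of 1.5-fold, 67.2% of 2-fold and 80.3% of 4-fold changes were recovered. Replicates differed by more than counting noise in every pair (lowest chi-square per degree of freedom 1.61), so none was merged.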

Additional observations from a re-analysis of the deposited data

How the results depend on the processing

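With a 1.5-fold limit added to the adjusted p, the counts of genes called higher and lower were 5 and 4 with siZFX, 4 and 4 with siZNF593, 2 and 13 in the double knockdown, 8 and 2 for siControl_2 against siControl, and 9 and 7 for siZFX against siZNF593. They were 11 and 0 with wtZFX, 9 and 0 with ZFX12_13, and 1 lower for ZFX12_13 against wtZFX. The double knockdown effect was then above that of siZFX for 3 genes and below it for 14, and above that of siZNF593 for 2 and below it for 11. Shares of all tested genes at this limit are not given, so these counts are not set against other genes. The larger stranded column gave 7 higher genes in the double knockdown and 2 lower with wtZFX, no filter gave 2 lower with wtZFX, and a fit of only the 2 groups gave 3.

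Against siControl_2, 25 genes were lower with siZFX and 26 with siZNF593, and COL5A2 (-1.04), SPARC (-0.093), THBS1 (0.47) and BGN (-0.51) changed sign with siZFX, as did COL6A3 (0.22) and MMP2 (-0.22) with siZNF593. Against siControl, 13 were higher in the double knockdown, and NID1 (0.27), COL5A2 (1.12), LAMA4 (0.15), DCN (1.53), THBS1 (-0.37) and LAMA5 (0.083) changed sign. Against all 6 controls, 8 were higher with siZFX; COL5A2 (-0.47) and BGN (-0.018) changed sign there, MMP2 (-0.017) with siZNF593, and COL5A2 (0.18), DCN (0.23) and THBS1 (-0.0031) in the double knockdown. The cause was not tested.

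With 1 library left out, the counts of higher and lower genes ran from 13 to 14 and 11 to 14 with siZFX, 9 to 10 and 11 to 13 with siZNF593, 4 to 6 and 21 to 29 in the double knockdown, 16 to 18 and 2 to 4 between the control sets, and 10 to 15 and 12 to 14 for siZFX against siZNF593. They ran from 6 to 8 and 17 to 25 for the double knockdown against the siZFX effect, and 2 to 3 and 13 to 22 against the siZNF593 effect. In DKO cells they ran from 15 to 18 and 1 to 3 with wtZFX, 14 to 17 and 0 to 4 with ZFX12_13, and 3 to 6 and 7 to 13 between the constructs. Shares of all tested genes with 1 library left out are not given, so these counts are not set against other genes. Of 1686 single-gene values with 1 library left out, 1499 kept direction and call and 187 lost the call. Of 2016 under the other alternatives, 1904 kept both, 94 lost the call and 18 changed sign.

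Replicate numbers did not pair the samples: same-numbered samples had correlations of their deviations from -0.09 to 0.097 in LN-229 and -0.047 to 0.043 in DKO cells. A replicate block kept 228 of 232 called single-gene values and ended 4, among them HSPG2 with siZNF593 (log2 change 0.45). Depth limits HAPLN1, COL1A2 and FBLN1 in LN-229 and BGN and THBS1 in DKO cells most.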

Other observations

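Some genes around the matrix differed between the control sets as the matrix genes did. Of 28 tested matrix receptors, 9 were higher and 3 lower in siControl_2 than in siControl, and of 23 tested genes of collagen folding 6 were higher and 1 lower. Of all tested genes, 5.43% were called higher and 4.88% lower. The glypican gene GPC4 (log2 change 1.51, adjusted p = 1.4e-04 by edgeR), the collagen-binding integrin gene ITGA11 (1.27, adjusted p = 6.6e-05) and the hyaluronan synthase gene HAS2 (1.41, adjusted p = 3.3e-07) were higher.

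In DKO cells MMP17, a membrane-anchored protease, rose with wtZFX from 4.34 ± 0.388 to 30.6 ± 1.998 CPM (log2 change 2.82 with SE 0.10, adjusted p = 2.3e-16) and was lower with ZFX12_13 than with wtZFX (log2 difference -1.66, adjusted p = 5.9e-12 by edgeR). TIMP4, an inhibitor of metalloproteinases, rose with ZFX12_13 from 0.423 ± 0.105 to 2.27 ± 0.391 CPM (log2 change 2.39 with SE 0.31, adjusted p = 1.4e-06) and was higher with it than with wtZFX (log2 difference 2.42, adjusted p = 3.6e-06).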
